A study of Homo sapiens with 4 samples.

Results

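Mesenchymal marker genes were described in MDA-MB-231, an established human breast carcinoma line, with and without knockdown of the transcription factor ZEB2. The members were 10 of the 19775 genes measured, chosen by symbol: the cadherins CDH2 and CDH11, the cytoskeletal genes VIM and TAGLN, the matrix genes FN1, SPARC, TNC and POSTN, and the surface protein genes THY1 and AXL. All probe sets annotated with a single gene symbol that was one of these were taken, which gave 32 of the 54675 probe sets on the Affymetrix U133 Plus 2 array. The 4 cultures, with 1 array each, shared the line and its medium, Leibovitz-15 with fetal calf serum. The vector control carried the lentiviral vector pLVTH, and the hairpin line carried a ZEB2 short hairpin, both as stably transduced lines. The luciferase control received 20 nM siRNA against luciferase, and the ZEB2 siRNA culture 20 nM of an siRNA pool against ZEB2, with a wash at 24 hours and RNA taken 48 hours later. Whether a stable line was a clone or a pool of cells is not given in the sources used here, and neither is any link between the stable and the transfected cultures.

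Epithelial cells that pass through an epithelial-mesenchymal transition exchange E-cadherin junctions for mesenchymal cadherins, build vimentin filaments and secrete a fibronectin-rich matrix. ZEB2 is a zinc-finger repressor that binds E-box DNA and drives this exchange, best known for repressing the E-cadherin gene. MDA-MB-231 belongs to the triple-negative, mesenchymal-like breast lines, in which vimentin is a standard marker. The vector control and hairpin line are called the stable pair, and the luciferase and ZEB2 siRNA cultures the transient pair. The comparison of each knockdown with its own control asks whether these markers differ when ZEB2 is low, and the comparison of the controls shows how far cultures that keep ZEB2 differ among themselves.

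Values below are the deposited log2 expression values, on which 1 unit is 2-fold. They are relative, and in a bulk culture fewer cells that express a gene and less RNA per cell cannot be told apart. Each group had a single array, so a difference within a pair has no replicate check, and precision is limited by this small number. The dim level is the 40th percentile of all values, 4.77. The target checked the labels: the brightest ZEB2 probe set read 6.12 in the vector control and 3.52 in the hairpin line, and 6.56 in the luciferase control and 3.51 in the ZEB2 siRNA culture. Of 6 markers of mesenchymal-like breast lines, all 6 lay above the dim level in every culture. Of 6 luminal or receptor genes, PGR and FOXA1 were under it in every culture, and the rest were above it in every culture. KRT19 read between 10.77 and 11.52, GATA3 between 8.18 and 9.48, ERBB2 between 7.83 and 7.97 and ESR1 between 6.08 and 6.54. Of 7 stromal fibroblast markers, 5 reached the dim level somewhere, with summed values of 35.8, 40.3, 41.5 and 41.8 in the vector control, hairpin line, luciferase control and ZEB2 siRNA culture. COL3A1 and PDGFRA stayed under it everywhere. The gene of this list that differed most was LUM, which encodes the matrix proteoglycan lumican and read 2.92, 6.80, 8.99 and 8.71. Of the 3 blood cell markers measured, PTPRC, which encodes CD45, was under the dim level throughout, CD3E read between 5.17 and 5.52, and CD14 read 5.21, 4.98, 7.30 and 6.94. The part of these differences in the results below was not tested.

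Each knockdown differed from its control by 2-fold or more in probe sets of 1 marker gene, and not of the same one. TAGLN was that gene for the hairpin line, which read higher, and FN1 for the ZEB2 siRNA culture, which read lower. The controls differed by 2-fold or more in more probe sets than either pair, which also held over all probe sets. By the brightest probe set of each gene they did so in TNC and CDH11, 2 of 10, where 12.2% of all genes did. VIM, the marker that most often defines the mesenchymal state, differed by -0.15 in each pair.

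In the stable pair 2 of the 32 member probe sets were at least 2-fold apart, both higher and both of TAGLN, where 2.94% of all probe sets were 2-fold apart, 1.62% higher and 1.32% lower. In the transient pair 3 of 32 were, all lower and all of FN1, where 0.166% of all probe sets were, 0.0439% higher and 0.123% lower. The 3 probe sets belong to 1 gene and are not independent results. Between the controls 10 of 32 were 2-fold apart, 8 higher and 2 lower in the luciferase control. Of all probe sets 12.8% were, 6.43% higher and 6.33% lower. The 10 came from 5 genes, with 4 of them from FN1, so they are not independent results either. Member probe sets whose mean reached the dim level numbered 22 and held the same counts of 2, 3 and 10, beside 4.21%, 0.215% and 18.8% of the 33033 probe sets of that brightness. The median difference of the 32 was 0.15, -0.024 and 0.25 in the stable pair, the transient pair and between controls, against -0.019, -0.00046 and -0.031 for all probe sets. Each control belongs to a pair and to the comparison of controls, so these comparisons share arrays.

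**Figure D1:**
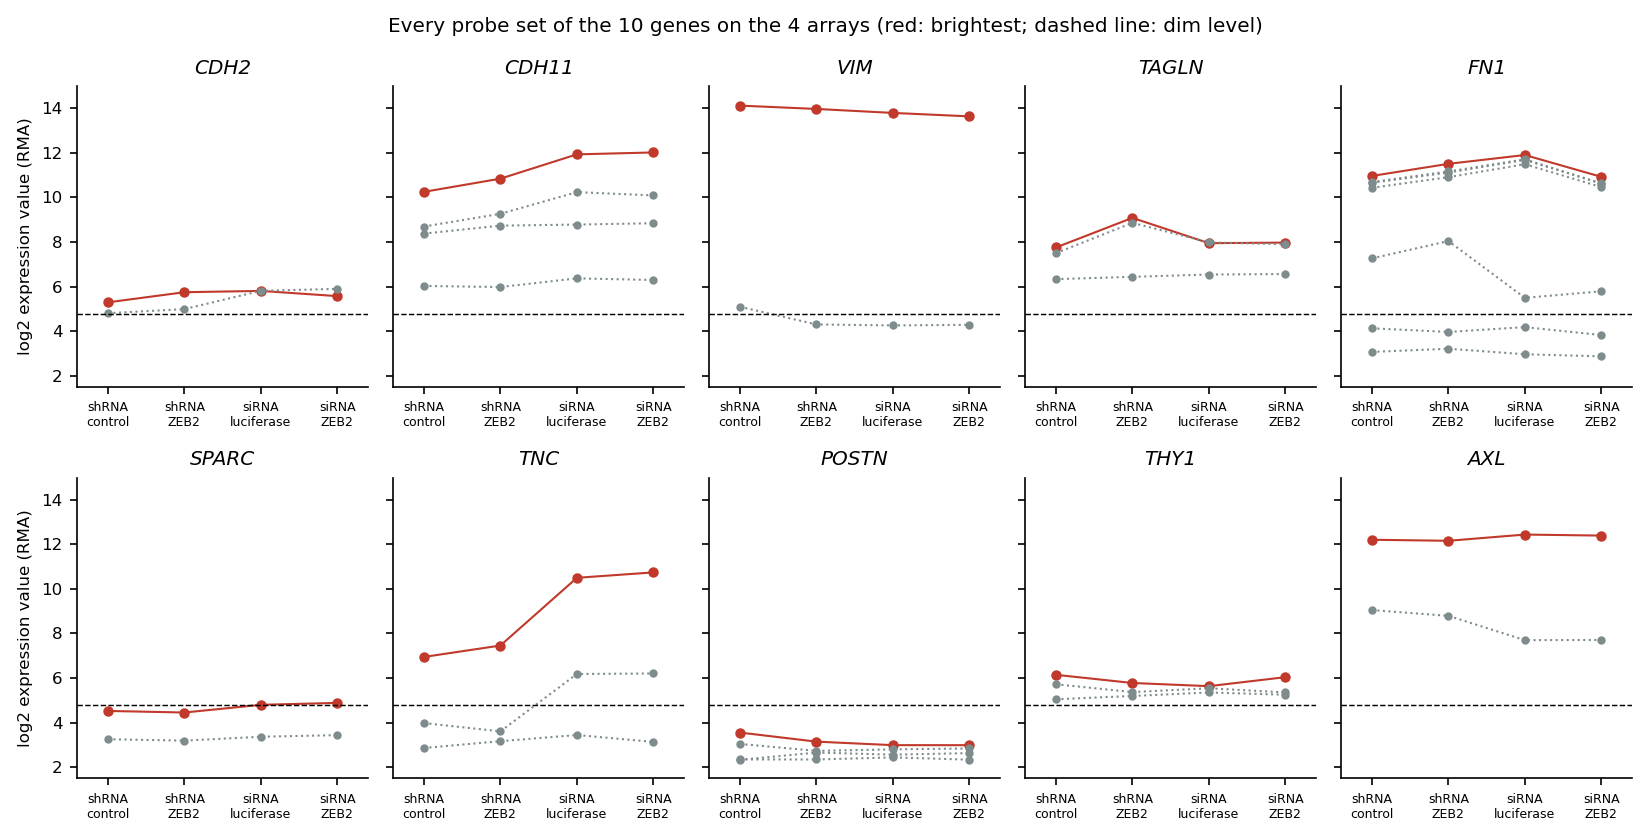
Log2 expression value of every probe set of the 10 genes (vertical axis) in the vector control, hairpin line, siRNA luciferase control and ZEB2 siRNA culture (horizontal axis, 1 array each, labelled shRNA control, shRNA ZEB2, siRNA luciferase and siRNA ZEB2). Lines join the values of 1 probe set, red marks the brightest of each gene, and the dashed line is the dim level of 4.77; TNC reads at most 7.46 in the stable cultures and at least 10.50 in the siRNA cultures by its brightest probe set, and POSTN lies under the dim level throughout.

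Promoter sequence was set beside the values because ZEB2 binds DNA at E-boxes. RefSeq windows of 250 bases before the annotated start, build GRCh38.p14, were at hand for 7 of the 10 genes, in 9 windows, and not for CDH11, TAGLN and THY1. The ZEB-type E-box CACCTG, searched on both strands, was in 1 of the 9 windows, an AXL window, against 17.5% of the 35116 windows in the table. The general E-box CANNTG, which includes CACCTG, was in 6 of 9 windows against 61.8%. The CArG box, the serum response factor element, was in 0 of 9 against 1.16%. The windows of FN1 and TNC, the matrix genes with the largest differences, and of AXL, which holds the match, are given 5′ to 3′ on the gene's strand, with CACCTG or its complement in capitals, which only the AXL window has. The FN1 window is chr2:215436069-215436318 on the minus strand, 76.4% G and C, with 0 matches of either E-box. The TNC window is chr9:115118158-115118407 on the minus strand, 54.8% G and C, with 2 CANNTG matches. The AXL window is chr19:41218973-41219222 on the plus strand, with its match 106 bases before the start.
FN1: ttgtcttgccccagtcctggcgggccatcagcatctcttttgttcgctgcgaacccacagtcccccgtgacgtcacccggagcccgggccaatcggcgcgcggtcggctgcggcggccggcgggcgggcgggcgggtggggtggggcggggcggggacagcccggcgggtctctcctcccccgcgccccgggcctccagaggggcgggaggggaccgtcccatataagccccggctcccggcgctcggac
TNC: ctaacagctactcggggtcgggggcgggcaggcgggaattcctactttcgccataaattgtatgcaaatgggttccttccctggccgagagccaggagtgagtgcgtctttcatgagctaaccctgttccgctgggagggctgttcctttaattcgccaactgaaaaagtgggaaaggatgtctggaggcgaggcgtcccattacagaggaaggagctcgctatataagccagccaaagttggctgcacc
AXL: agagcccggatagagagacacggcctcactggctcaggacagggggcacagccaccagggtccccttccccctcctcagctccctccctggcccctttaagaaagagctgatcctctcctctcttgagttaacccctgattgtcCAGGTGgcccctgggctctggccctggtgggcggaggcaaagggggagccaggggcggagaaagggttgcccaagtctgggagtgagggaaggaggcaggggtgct
A match describes the letters of the window and does not show binding.

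CDH11 encodes cadherin-11, a mesenchymal adhesion protein of osteoblasts and fibroblasts. Its brightest probe set, 207173_x_at, read 10.25 in the vector control, 10.84 in the hairpin line, 11.93 in the luciferase control and 12.02 in the ZEB2 siRNA culture. The vector control was thus the lowest of the 4 cultures and the siRNA cultures were the highest, with or without ZEB2. Knockdown minus control was 0.59 in the stable pair and 0.09 in the transient pair, and the controls differed by 1.68, 3.21-fold. The next probe set, 207172_s_at, followed with 8.69, 9.26, 10.24 and 10.09 in the same order of cultures. The remaining CDH11 probe sets were flatter, at 8.38, 8.73, 8.78 and 8.84 for 236179_at and at 6.03, 5.98, 6.37 and 6.29 for 239286_at. The mean of the 4 probe sets put the gap between controls at 0.99, just short of 2-fold.

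CDH2 encodes N-cadherin, the cadherin that replaces E-cadherin in the classical switch. Its probe set 203441_s_at read 5.29, 5.75, 5.80 and 5.57 in the vector control, hairpin line, luciferase control and ZEB2 siRNA culture, and 203440_at read 4.80, 4.99, 5.81 and 5.90. Both lie near the dim level, where RMA compresses differences. Knockdown minus control was 0.45 and 0.18 in the stable pair and -0.23 and 0.09 in the transient pair, so the probe sets had opposite signs in the latter. Between the controls they differed by 0.51 and 1.005, both higher in the luciferase control.

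VIM encodes vimentin, the intermediate filament protein of mesenchymal cells. Its probe set 201426_s_at read 14.12, 13.97, 13.79 and 13.64 across the 4 cultures in the same order, close to the highest value on any array, which was between 14.54 and 14.61. At that end of the scale the signal of a probe can saturate, which compresses differences, and whether it did was not tested. The differences were -0.15 in the stable pair, -0.15 in the transient pair and -0.33 between the controls. The other VIM probe set, 1555938_x_at, read 5.09 in the vector control and between 4.25 and 4.30, under the dim level, in the other 3 cultures. It differed by -0.79 in the stable pair and by 0.03 in the transient pair.

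TAGLN encodes transgelin, or SM22, an actin-binding protein of smooth muscle and a target of serum response factor and of TGF-beta signalling. Probe set 1555724_s_at read 7.75 in the vector control, 9.08 in the hairpin line, 7.95 in the luciferase control and 7.97 in the ZEB2 siRNA culture, and 205547_s_at read 7.50, 8.86, 7.98 and 7.90. The hairpin line stood above the other 3 cultures, which lay within 0.22 and 0.49 of each other. Knockdown minus control was 1.33 and 1.36 in the stable pair, 2.51-fold and 2.57-fold, and 0.03 and -0.08 in the transient pair. By size these ranked 708 and 659 of the 54675 differences of the stable pair. The TAGLN probe set 226523_at read 6.33, 6.44, 6.54 and 6.56 and differed by 0.10 in the stable pair, so the mean of the 3 probe sets was 0.93, under 2-fold.

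FN1 encodes fibronectin, the matrix glycoprotein that integrins bind. Its 4 brightest probe sets, 211719_x_at, 210495_x_at, 216442_x_at and 212464_s_at, lay between 10.43 and 10.96 in the vector control and between 10.91 and 11.51 in the hairpin line. They lay between 11.49 and 11.90 in the luciferase control and between 10.46 and 10.92 in the ZEB2 siRNA culture. In each of the 4 the luciferase control was the highest culture, and the ZEB2 siRNA culture differed from the vector control by -0.06 to 0.03. Knockdown minus control was between 0.46 and 0.54 in the stable pair and between -1.08 and -0.98 in the transient pair, so the pairs had opposite signs. The transient differences were 1.97-fold to 2.12-fold, and by size they ranked 61 to 102 of 54675 in that pair. The brightest, 211719_x_at, was just short of 2-fold at -0.98, and the others were just past it. Of the 4, 3 have names ending in _x_at, which marks probes that can read other transcripts too, and 212464_s_at, which has no such mark, differed by -1.03.

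Another FN1 probe set, 214701_s_at, followed another course. It read 7.26 in the vector control, 8.04 in the hairpin line, 5.49 in the luciferase control and 5.79 in the ZEB2 siRNA culture. Knockdown was higher than control in both pairs, by 0.78 and 0.30, and the luciferase control was lower than the vector control by 1.77, 3.41-fold, where the 4 brightest probe sets were higher by 0.94 to 1.06. Fibronectin is known for alternative splicing and for a truncated secreted form, and which of its transcripts each probe set reads was not analysed here. The last FN1 probe sets, 1558199_at and 214702_at, read between 2.87 and 4.18 and were under the dim level in every culture.

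TNC encodes tenascin-C, a matricellular protein of healing wounds and tumour stroma. Probe set 201645_at read 6.95 in the vector control and 7.46 in the hairpin line, against 10.50 in the luciferase control and 10.74 in the ZEB2 siRNA culture. The stable and siRNA cultures did not overlap, and the gap was 3.55 between the controls, 11.7-fold, and 3.28 between the knockdowns, 9.73-fold. By size the difference between controls ranked 214 of 54675. Knockdown minus control was 0.51 in the stable pair and 0.24 in the transient pair. Probe set 216005_at read 3.98 and 3.61 in the stable cultures, under the dim level, and 6.18 and 6.20 in the siRNA cultures, a gap of 2.20 between controls. The third, 237169_at, was under the dim level in every culture, between 2.86 and 3.44.

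SPARC encodes osteonectin, a collagen-binding matricellular protein, and POSTN encodes periostin, which links the matrix to integrins. SPARC 200665_s_at read 4.52, 4.45, 4.80 and 4.88 in the vector control, hairpin line, luciferase control and ZEB2 siRNA culture, above the dim level in the siRNA cultures alone. SPARC 212667_at stayed between 3.19 and 3.44. All 4 POSTN probe sets read between 2.33 and 3.55 and never reached the dim level. Of the 8 member probe sets that never did so, 4 were those of POSTN. At these values an array does not show whether a transcript is present, so the SPARC differences of -0.07 and 0.09 and those of POSTN in the pairs carry little information.

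THY1 encodes CD90, a surface glycoprotein of fibroblasts and stem-like cells. Probe set 208851_s_at read 6.15, 5.78, 5.64 and 6.04 in the vector control, hairpin line, luciferase control and ZEB2 siRNA culture, which differed by -0.37 in the stable pair and 0.40 in the transient pair. Probe set 213869_x_at differed by -0.35 and -0.19 in the pairs, and 208850_s_at by 0.15 and -0.10, so the 3 probe sets had mixed signs in both pairs. Between the controls they differed by -0.51, -0.18 and 0.30.

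AXL encodes a receptor tyrosine kinase of the TAM family that is activated by GAS6 and is linked to invasive breast cancer cells. Its probe set 202686_s_at read 12.21, 12.16, 12.44 and 12.39 in the same order and differed by -0.05 in each pair and 0.23 between the controls. Probe set 202685_s_at read 9.05, 8.79, 7.70 and 7.71, so the luciferase control was lower than the vector control by 1.35, 2.55-fold. The AXL probe sets thus had opposite signs between the controls, and their mean difference was -0.56. In the pairs 202685_s_at differed by -0.26 and 0.008.

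**Figure D2:**
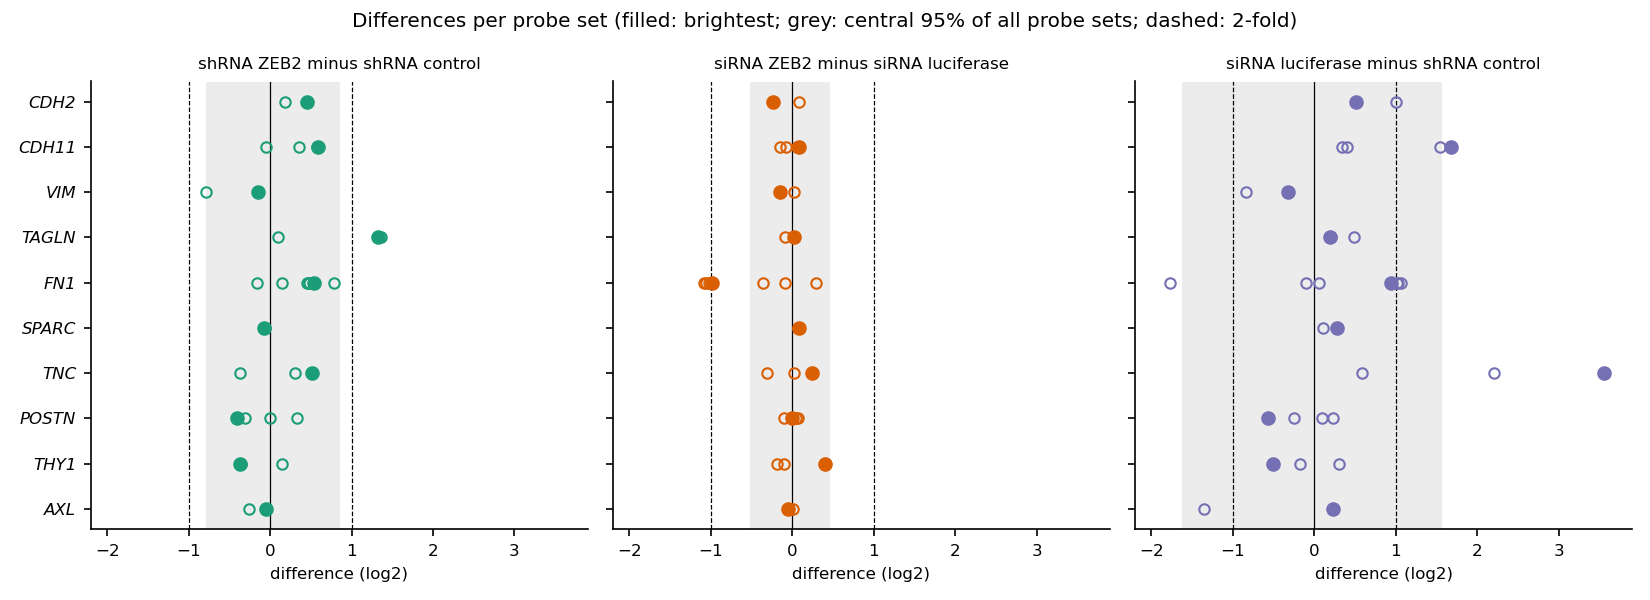
Difference of log2 values (horizontal axis) for every probe set of the 10 genes (rows): hairpin line minus vector control, ZEB2 siRNA minus luciferase control, and luciferase control minus vector control. Filled points are the brightest probe set of a gene, dashed lines mark 2-fold, and grey covers the central 95% of all 54675 probe sets, from -0.78 to 0.84, from -0.51 to 0.45 and from -1.61 to 1.56; TAGLN stands out at 1.33 in the first panel, FN1 at -0.98 in the second and TNC at 3.55 in the third.

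By the brightest probe set of each gene, 6 of the 10 markers had the same sign in both pairs, and 0 were 2-fold apart in both. The same-sign share over all genes was not computed. Of these 6, the mean of all probe sets turned the transient sign of CDH11, TAGLN, TNC and POSTN, to -0.018, -0.013, -0.015 and 0.002. VIM and AXL kept the same sign in both pairs, so the count of 6 is not stable. Over the 4 cultures 3 genes, TNC, CDH11 and TAGLN, spanned at least 2-fold by the brightest probe set, and the other 7 spanned less. Other probe sets of FN1, AXL and CDH2 did span 2-fold, such as FN1 214701_s_at at 2.55, AXL 202685_s_at at 1.35 and CDH2 203440_at at 1.09. To ask for an effect shared by both knockdowns, limma was fitted to all 54675 probe sets with the method as a block, which leaves 1 residual degree of freedom and treats the methods as repeats of ZEB2 loss. After Benjamini-Hochberg adjustment limma passed 0 probe sets, 0% of all, and 1653 had an unadjusted p under 0.05. Of the 32 member probe sets 0 had an unadjusted limma p under 0.05. The smallest was 0.0595, for FN1 214701_s_at, at a mean difference of 0.54 ± 0.20 (SE) and an adjusted p of 0.966 in limma. The brightest probe set of FN1 had a mean difference of -0.22 ± 0.42, that of TAGLN 0.68 ± 0.37 and that of VIM -0.15 ± 0.11, each with limma's moderated SE. That SE combines the disagreement of the pairs, 1 residual degree of freedom, with a prior of 2.8 degrees of freedom from all probe sets. A p that misses the threshold in so small a design does not show that the markers are unaffected.

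The same limma fit gives the mean difference of the siRNA arrays from the arrays of the stable lines, a comparison added after the values had been seen. Its SEs are the same moderated ones. The fit holds a knockdown term, so they rest on the disagreement of the pairs and on the prior. They do not measure spread between independent stable or transfected cultures. Delivery by siRNA or by stable vector and any difference between the cultures themselves cannot be told apart. Of all probe sets 7.02% passed at an adjusted p of 0.05, 1672 higher and 2167 lower in the siRNA cultures, and 6 of the 32 member probe sets did. TNC 201645_at was higher by 3.42 ± 0.18 (SE, limma adjusted p = 0.0255) and TNC 216005_at by 2.40 ± 0.17 (limma adjusted p = 0.0267). The latter is a difference from values under the dim level in both stable cultures, so its size is not exact. FN1 214701_s_at was lower in the siRNA cultures, at -2.01 ± 0.20 (limma adjusted p = 0.0324). CDH11 207173_x_at was higher by 1.43 ± 0.19 (limma adjusted p = 0.0420) and CDH2 203440_at by 0.96 ± 0.15 (limma adjusted p = 0.0498). AXL 202685_s_at was lower, at -1.22 ± 0.18 (limma adjusted p = 0.0465). CDH11 207172_s_at, at 1.18 ± 0.24, missed the threshold with a limma adjusted p of 0.0743, and it passed in 6 of 8 alternative fits, where its adjusted p lay between 0.0265 and 0.0733. The brightest FN1 probe set, at 0.18 ± 0.42, had a limma adjusted p of 0.821.

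Genes near the members in function were read from 7 lists with 97 genes measured, by the brightest probe set of each gene. Of these, 7 were 2-fold apart in the stable pair, 6 higher and 1 lower, where 3.46% of all 19775 genes were. In the transient pair 0 were, where 0.142% of all genes were. Between the controls 17 were, 12 higher and 5 lower, where 12.2% of all genes were. None was 2-fold apart the same way in both pairs. The medians of all genes were -0.029, -0.0050 and 0.0067 in the stable pair, the transient pair and between controls.

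Contractile cytoskeleton genes, the partners of TAGLN, had 10 of 15 measured members higher and 5 lower in the stable pair (median 0.32). In the transient pair 11 were higher and 4 lower (median 0.14). Of all genes, 45.5% were higher in the stable pair and 48.4% in the transient pair. ACTG2, a smooth muscle actin gene, read 5.46 and 6.61 in the stable pair, and its difference of 1.16 was the only one at 2-fold; the mean of its 2 probe sets gave 0.57. ACTN1, which encodes the actin crosslinker alpha-actinin, differed by 0.56 and 0.14. Between the controls MYL9, a myosin light chain gene, differed by -1.55 and ACTN1 by 1.02, but the means of their probe sets gave -0.65 and 0.30. Other intermediate filament genes, the relatives of VIM, had medians of -0.008 and -0.05 in the pairs over 13 genes. NES, which encodes nestin, differed by -1.14 in the stable pair, 0.02 in the transient pair and -1.96 between the controls. The mean of its 2 probe sets gave -0.70 in the stable pair, under 2-fold, and -1.17 between the controls. SYNM, which encodes synemin, differed by -0.73 and -0.24 in the pairs. LMNB1, which encodes lamin B1, differed by -2.55 between the controls.

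Of the 15 other cadherins measured, 7 were under the dim level in every culture, and the medians were -0.02 in the stable pair and -0.004 in the transient pair. CDH1, which encodes E-cadherin, read 3.54, 4.26, 7.37 and 8.35 in the vector control, hairpin line, luciferase control and ZEB2 siRNA culture. It was under the dim level in both stable cultures, higher in the siRNA cultures, as CDH11 and TNC were, and differed by 0.73 and 0.98 in the pairs and by 3.83 between the controls. CDH3, which encodes P-cadherin, differed by 0.59, -0.54 and 2.00, with a vector control value of 4.65 under the dim level. CDH8 differed by -0.83 and 0.06 in the pairs and was above the dim level on 1 array.

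Other matricellular genes, the kin of TNC and SPARC, had 12 of 21 members higher in each pair, with medians of 0.14 and 0.04. For this list and the integrins below, the share of all genes that were higher was 45.5% in the stable pair and 48.4% in the transient pair. SPOCK1, a proteoglycan gene of the SPARC family, read 3.89, 6.39, 9.11 and 8.82 and differed by 2.50 in the stable pair, -0.29 in the transient pair and 5.22 between the controls. Its value in the vector control was under the dim level, so the sizes of 2.50 and 5.22 are not exact. SPARCL1 was under the dim level in every culture. CCN2, the connective tissue growth factor gene, differed by -0.75 and 0.04 in the pairs and by -2.28 between the controls. Integrins that bind fibronectin, tenascin-C or periostin, with the co-receptor gene SDC4, had 3 of 9 members higher and 6 lower in the stable pair and 5 higher and 4 lower in the transient pair. ITGA5, the fibronectin receptor subunit, differed by -0.35 and -0.17, and ITGB3 by -0.29 and -0.18. Between the controls SDC4 differed by 0.91 and ITGAV by 0.80. Of the TAM genes, the AXL ligand gene GAS6 differed by 0.21 and 0.15 in the pairs and 0.50 between the controls, and PROS1, which encodes protein S, by -0.31, -0.31 and 0.87.

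Of 20 other mesenchymal genes, 4 read 2-fold or more above control in the stable pair and 0 did in the transient pair. Of all genes, counting both directions, 3.46% and 0.142% were 2-fold apart in these pairs. S100A4, which encodes a calcium-binding protein of motile cells, read 10.12, 12.04, 13.07 and 13.34 in the vector control, hairpin line, luciferase control and ZEB2 siRNA culture. SNAI2, which encodes the E-box repressor Slug, read 8.88, 10.85, 11.68 and 11.42. LOX, which encodes a collagen cross-linking enzyme, read 7.87, 10.23, 9.76 and 9.23. MCAM, which encodes a cell adhesion molecule, read 5.99, 7.31, 8.44 and 8.67, and the mean of its 2 probe sets differed by 0.67. In all 4 the vector control was the lowest culture, but their choice as higher in the hairpin line fixed part of this order. By the brightest probe sets of the members, the vector control was the lowest for CDH2, CDH11, TAGLN and TNC. It was the highest for VIM, POSTN and THY1, and neither for FN1, SPARC and AXL.

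**Figure D3:**
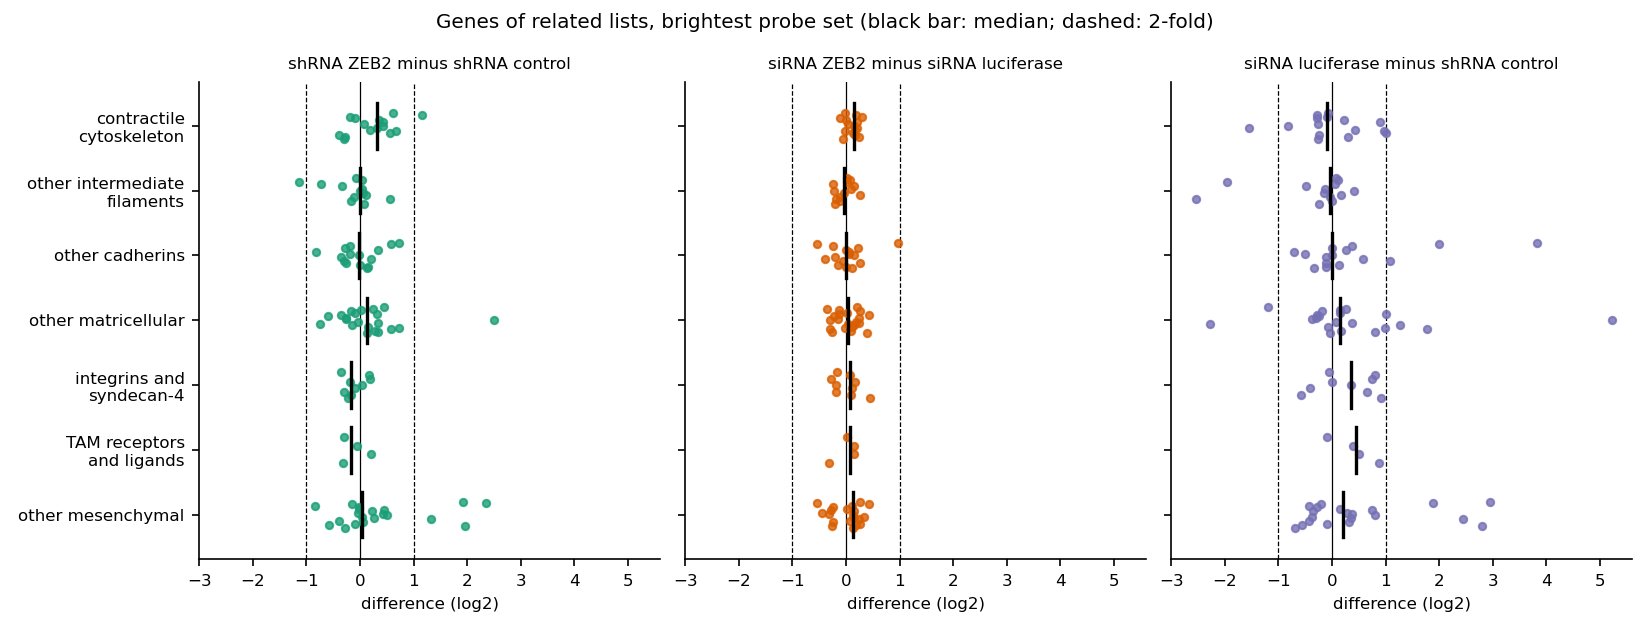
Difference of log2 values (horizontal axis) for the genes of 7 related lists (rows), by the brightest probe set of each gene, in the 3 comparisons. Black bars are list medians and dashed lines mark 2-fold; in the transient pair all genes lie inside 2-fold, with CDH1 at 0.98 the nearest to it, and between the controls SPOCK1 reaches 5.22, against a vector control value under the dim level.

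The genes most like the 3 markers that spanned 2-fold by the brightest probe set were sought among 15082 genes that reached the dim level. The measure was the root mean square difference of profiles centred over the 4 arrays, a description with 4 points per gene. Nearest to TNC were the kinase gene MAP3K8 at 0.166, the laminin gene LAMA1 at 0.185 and the lipocalin gene LCN2 at 0.191. MAP3K8, at 3.91 and 4.01, and LAMA1, at 3.41 and 3.94, were under the dim level in both stable cultures. Nearest to CDH11 were PPP1R3F at 0.0277, PFKFB2 at 0.0309 and RFTN1 at 0.0332. Nearest to TAGLN were the protocadherin gene PCDHB14 at 0.0160, whose family has near-identical copies, RIMS2 at 0.0575 and the DNA repair gene XRCC2 at 0.0785. PCDHB14 was above the dim level in the hairpin line alone, at 5.28. Distances of these 3 genes rest in part on dim values. With 4 arrays and many genes a close profile is easily met.

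**Figure D4:**
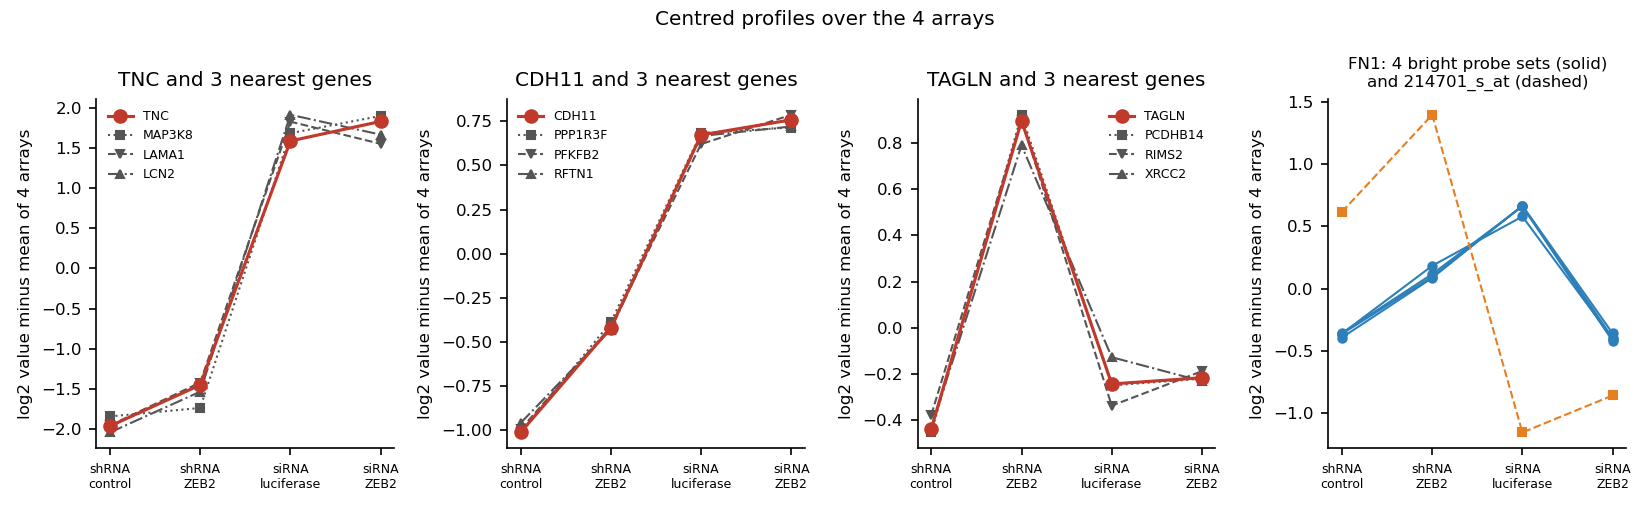
Log2 value minus the mean of the 4 arrays (vertical axis) in each culture (horizontal axis) for TNC, CDH11 and TAGLN with the 3 genes of nearest profile, and for 5 FN1 probe sets. TNC is high in both siRNA cultures and TAGLN in the hairpin line, while FN1 214701_s_at (dashed, read 5.49 in the luciferase control) runs against the 4 brightest FN1 probe sets (solid, read 11.49 to 11.90 there).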

How the data were processed

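Total RNA of 4 cultures was measured on Affymetrix U133 Plus 2 arrays. The authors deposited log2 values, 1 for each probe set and array. The submitters' processing notes name RMA and affy, and their versions are not given in the sources used here. As a method, RMA corrects background, equalises the distributions of the arrays and summarises probes, so any change in total RNA per cell is hidden. Scanner files were not used here. In the platform annotation 41097 probe sets carried 1 symbol, 1801 several and 11777 none. Of the first, 41043 matched the RefSeq table of GRCh38.p14, which was used to update names.

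Differences were taken between single arrays and counted at 2-fold. Arrays had medians from 5.34 to 5.37. The common effect was fitted with limma 3.58.1 in R 4.3.3 (lmFit, eBayes with an intensity trend, 2-sided, Benjamini-Hochberg over all probe sets at 0.05), after a check on simulated data. The simulated shifts were the same in both pairs, so that check does not show how the fit performs where the pairs disagree. Nothing in the labels describes repeated cultures. The p-values of this fit rest on the disagreement of the pairs and on limma's prior, and not on spread between repeated cultures. Members, lists and tests were chosen with earlier results of these data known. Named genes were all members, ZEB2, the cell type markers singled out by value, the 3 nearest profiles, and in each list those 2-fold the same way in both pairs, otherwise the 2 with the largest mean pair difference, the 2 with the largest difference between controls, and some at 2-fold in 1 pair. Listed genes without a named probe set were not analysed here. Alternatives were other scalings, filters, fold thresholds, summaries per gene and limma settings. Figures used matplotlib 3.10.9 in Python 3.11.15.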

Additional observations from a re-analysis of the deposited data

Results flagged for a closer look

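FN1 differed in opposite directions in the pairs. Its brightest probe set was higher by 0.54 in the stable pair and differed by -0.98 in the transient pair, a gap of 1.53 between the pairs. With 1 array per group this difference between the pairs was not tested.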

How the results depend on the processing

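Differences of the 10 genes were recomputed under 4 alternatives in 3 comparisons, 120 values in all. Under median centring, quantile normalization and cyclic loess 0 signs turned and 0 genes crossed 2-fold. The deposited arrays already had nearly equal distributions, with medians from 5.34 to 5.37 and sorted values within 0.0805 of their mean. Median centring and quantile normalization could therefore change these differences little, and this stability was largely fixed in advance. The mean of all probe sets in place of the brightest turned 5 signs, none of a value at 2-fold, and put TAGLN in the stable pair (0.93) and CDH11 between controls (0.99) under 2-fold. No other scaling moved the median of all probe sets by more than 0.027.

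The count of member probe sets at 2-fold in the stable pair, 2, was 5 at 1.5-fold and 0 at 3-fold, and counted by gene it was 1 by the brightest probe set and 0 by the mean. The count of 3 in the transient pair was 2 under cyclic loess, 1 without _x_at probe sets, 0 at 3-fold, and 0 by either summary per gene. The count of 10 between controls was 8 under cyclic loess, 7 without _x_at probe sets, 4 at 3-fold, 2 genes by the brightest probe set and 1 gene by the mean. Counts by gene are lower by construction, since 10 genes stand in for 32 probe sets.

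The common knockdown effect passed 0 member probe sets under all 10 alternatives of the limma fit, with or without the method block. For the siRNA against the shRNA arrays limma passed 6 member probe sets, 5 to 7 in other probe set fits, and 1 gene, TNC, by either summary per gene. Over all probe sets that count, 3839, was 8893 with no knockdown term, 7578 and 7548 with median centring and quantile normalization, 8113 with cyclic loess, 5947 and 5960 with the filters at the 40th and 60th percentile. By gene it was 248 for the brightest probe set, 75% of them higher against 43.6% for probe sets, and 1476 for the mean. Adjusted limma p-values of TNC 201645_at lay between 0.00255 and 0.0257 over the 8 other probe set fits. The labels give no replicate numbers, and the method block is the only pairing of knockdown with control; without it limma also passed 0 member probe sets for the knockdown.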
